A study of Mus musculus with 8 samples.

Results

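The receptors for the Fc part of immunoglobulin G (IgG) were followed in microglia, the brain and spinal cord's own macrophages, with 6 genes chosen by name: Fcgr1, Fcgr2b, Fcgr3, Fcgr4, Fcer1g and Fcgrt. All 6 were found by Ensembl identifier among the 54532 genes of the count table, and all 6 were among the 17291 genes with enough reads to be tested. RNA sequencing libraries came from spinal cord microglia of 8 female mice, 1 library per mouse. The 4 wild type mice (WT 503, 504, 506 and 527) carry the label WildType, and the 4 knock-in mice (KI 513, 526, 528 and 549) the label Cd11b-P2X4mCherryIN KI. The knock-in concerns P2X4, an ATP-gated channel encoded by P2rx4, and its name includes CD11b, a myeloid surface protein, and the red fluorescent protein mCherry. The labels give no age, treatment or disease for these libraries. The cells of both groups were sorted as living, CD11b positive, CD45 low and Ly6C negative, and both were treated with an Fc receptor blocking reagent before the antibody stain.

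Fc gamma receptors bind antibody that coats microbes, cell debris or immune complexes. Fcgr1, Fcgr3 and Fcgr4 encode activating receptors with little signalling sequence of their own, which pass the signal through the common gamma chain encoded by Fcer1g. That chain carries an ITAM (immunoreceptor tyrosine-based activation motif): kinases of the Src family phosphorylate its tyrosines, and the kinase Syk docks there and starts uptake and the oxidative burst. Fcgr2b encodes the inhibitory receptor, whose ITIM (immunoreceptor tyrosine-based inhibition motif) recruits the phosphatase SHIP-1, encoded by Inpp5d. Fcgrt encodes the neonatal receptor FcRn, a relative of class I molecules that pairs with beta-2 microglobulin (B2m) and returns IgG from endosomes to the surface.

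In mm10 coordinates, 4 of the genes lay within 275.7 kb on chromosome 1: Fcgr2b (ENSMUSG00000026656, 170958617 to 170976547, minus strand), Fcgr4 (ENSMUSG00000059089, 171018920 to 171029761, plus strand), Fcgr3 (ENSMUSG00000059498, 171051174 to 171064935, minus strand) and Fcer1g (ENSMUSG00000058715, 171229572 to 171234365, minus strand). Fcgr1 (ENSMUSG00000015947) was on chromosome 3, 96282909 to 96293969, and Fcgrt (ENSMUSG00000003420) on chromosome 7, 45092990 to 45103851, both on the minus strand. The only member whose exons overlapped those of another gene was Fcgr2b, with 155 of its 5790 exon bases shared with Gm38204 on the other strand.

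**Figure D1:**
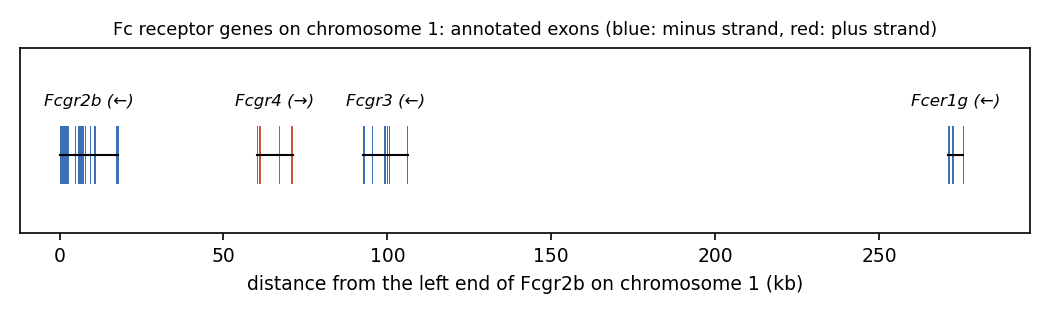
Map of the 4 Fc receptor genes of chromosome 1, with distance in kb from the left end of Fcgr2b on the x axis, annotated exons as bars and strand by colour. Fcgr2b, Fcgr4 and Fcgr3 lie next to each other with gaps of 42.4 and 21.4 kb, and Fcer1g follows 164.6 kb further on.

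The motifs that give the receptors their opposite roles are short, and their coding sequences in the GENCODE M21 transcripts are shown with the codons of the signalling tyrosines in capitals. The Fcer1g stretch spans exons 3 to 5 of Fcer1g (chr1:171229880-171230998, minus strand), and the Fcgr2b stretch lies in exon 8 of Fcgr2b (chr1:170961062-170961097, minus strand).
Fcer1g ITAM: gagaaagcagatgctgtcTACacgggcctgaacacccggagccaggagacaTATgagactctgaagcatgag
Fcgr2b ITIM: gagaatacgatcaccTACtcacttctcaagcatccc
The ITAM pattern was found in the coding sequence of Fcer1g and of no other member. The looser ITIM pattern also matched 3 times in Fcgr1 and 1 time each in Fcgr4, Fcer1g and Fcgrt, so a match alone names no ITIM.

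Fcgr2b and Fcgr3 share much of their coding sequence, which bears on how well reads can be told apart. The longest identical run was 129 bases across exons 3 and 4 of both genes, shown in capitals with 20 bases on each side, from Fcgr2b (chr1:170966654-170968101, minus strand) and Fcgr3 (chr1:171054147-171057812, minus strand).
Fcgr2b: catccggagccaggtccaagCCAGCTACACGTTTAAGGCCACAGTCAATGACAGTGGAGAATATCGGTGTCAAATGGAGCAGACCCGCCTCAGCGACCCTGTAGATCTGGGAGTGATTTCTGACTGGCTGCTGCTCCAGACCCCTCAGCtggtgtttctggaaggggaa
Fcgr3: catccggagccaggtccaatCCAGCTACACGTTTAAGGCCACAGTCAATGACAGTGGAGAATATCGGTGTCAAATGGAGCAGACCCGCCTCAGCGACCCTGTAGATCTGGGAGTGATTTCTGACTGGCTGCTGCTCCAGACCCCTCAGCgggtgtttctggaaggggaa
Of all windows of 100 bases in the transcripts, 2.54% of those of Fcgr3 and 0.753% of those of Fcgr2b occurred in the other gene. With windows of 75 bases the shares were 5.42% and 1.63%, and with windows of 150 bases no window was shared. No other pair of members shared a window of 50 bases. For Fcgr3 and Fcgr2b the shares at 50 bases were 9.58% and 2.92%. No read length is stated in the labels, so how many reads of Fcgr2b and Fcgr3 could belong to either gene is not known. Fcgr3 averaged 145460 reads per library against 29963 for Fcgr2b, so such reads would weigh more on the Fcgr2b count.

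The labelled cell type was checked first. The 7 microglial markers reported here (P2ry12, Tmem119, Sall1, Cx3cr1, Csf1r, Siglech and Gpr34) summed to between 22030 and 26344 TMM-scaled CPM, the read count of a gene relative to its library's total, in every library. The libraries held 45167483 to 54049801 reads on genes. P2rx4 itself averaged 792 ± 43.5 CPM in WT against 858 ± 62.6 for KI (SD, 4 mice each). Its level over the whole gene model does not check the genotype. KI 528 held more marker transcripts of other myeloid cells than the other libraries. Its 6 neutrophil markers summed to 52.0 CPM, against 18.4 in WT 504, 17.1 in KI 513 and at most 0.421 in the remaining 5 libraries. In KI 528 the 5 monocyte markers summed to 10.95 CPM (3.12 to 7.12 elsewhere), the 6 markers of border-associated macrophages to 19.6 (4.40 to 10.4 elsewhere), and the 6 markers of mast cells and basophils to 7.89 (0.221 to 1.08 elsewhere). No marker of these lists was at 0 over all 8 libraries. These cells also carry Fc receptors, and the part of these markers in the levels below was not tested. In RNA of sorted cells in bulk, fewer cells of a type and less RNA per cell cannot be told apart.

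Per length, spinal cord microglia held far more transcript of Fcgr3 and of the common gamma chain than of the other Fc receptors. In deposited FPKM, read counts relative to library total and gene length, Fcgr3 stood at 1858 ± 55.9 in WT and 1921 ± 129 in KI, which placed it 13th among 17015 tested genes by mean level. Fcer1g followed at 1611 ± 79.7 and 1706 ± 65.6, the 18th. Fcgr1, the high-affinity receptor, was at 183 ± 14.2 and 179 ± 17.5 FPKM, Fcgrt at 116 ± 6.11 and 114 ± 11.1, Fcgr2b at 108 ± 2.91 and 107 ± 2.13, and Fcgr4 at 18.99 ± 4.28 and 19.1 ± 2.54 (SD, n = 4 each).

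**Figure D2:**
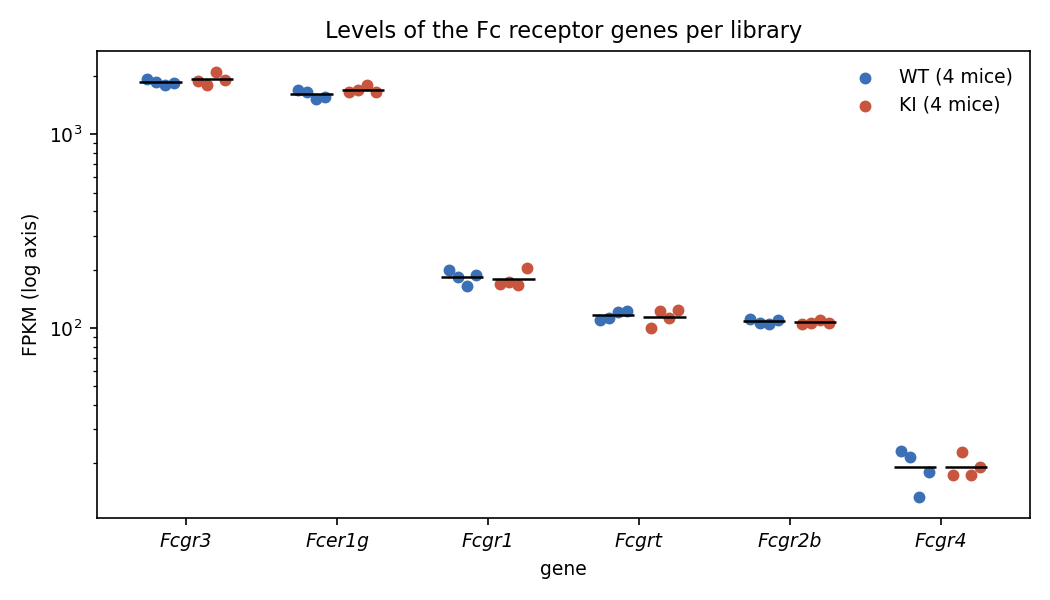
Level of each gene in deposited FPKM on a log axis, with 1 point per library, WT in blue and KI in red, and the group mean as a black line. Fcgr3 and Fcer1g lie between 1524 and 2101 FPKM, the next 3 genes between 99.6 and 204, and Fcgr4 between 13.4 and 23.1, with WT and KI overlapping for every gene.

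The order of the levels was the same in all 8 libraries except at 1 step. Fcgr3 was above Fcer1g in each library, by 1.05-fold to 1.18-fold, although the lowest Fcgr3 value (1796 FPKM in WT 506) was under the highest Fcer1g value (1798 in KI 528). Fcer1g was 8.11-fold to 10.8-fold above Fcgr1, and Fcgr1 was 1.36-fold to 1.81-fold above Fcgrt. Fcgrt and Fcgr2b did not differ beyond their spread: Fcgrt was higher in 6 of 8 libraries, with ratios from 0.949 to 1.16. Fcgr2b was 4.68-fold to 7.84-fold above Fcgr4.

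The middle of this order depended on the gene length used. The summed exons of Fcgr2b measured 5790 bases, 1.63 times its longest coding transcript of 3544, and the annotation includes transcripts with retained introns. Divided by the longest coding transcript instead, Fcgr2b came to 170 ± 4.20 CPM per kb in WT and 170 ± 6.73 in KI. That was level with Fcgr1 (169 ± 12.8 and 166 ± 15.9) and above Fcgrt (125 ± 7.08 and 124 ± 10.8). Fcgr3 (2127 ± 59.5 and 2219 ± 200), Fcer1g (1613 ± 79.3 and 1720 ± 94.8) and Fcgr4 (16.1 ± 3.61 and 16.3 ± 1.79) kept their places.

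The balance of activating to inhibitory receptor rested mainly on Fcgr3. In FPKM, the 3 activating receptors together were 19.1 ± 0.416 times Fcgr2b in WT and 19.8 ± 0.86 times in KI (SD, n = 4 each), from 18.6 in WT 527 to 20.8 in KI 528. The groups overlapped. Without Fcgr3, Fcgr1 and Fcgr4 together were 1.87 ± 0.13 times Fcgr2b in WT and 1.85 ± 0.18 times in KI. Of the summed FPKM of the 4 IgG receptors, Fcgr3 made up 85.3% to 87.7%, Fcgr1 6.98% to 9.14%, Fcgr2b 4.59% to 5.09% and Fcgr4 0.646% to 1.08%. In TMM-scaled CPM, the activating to inhibitory ratio was 17.6 in WT and 18.3 in KI per length of the summed exons. Per length of the longest coding transcript it was 13.6 and 14.1, so its size rests on the gene lengths taken. Between these 2 lengths Fcgr2b went from 5790 to 3544 bases and Fcgr3 from 1736 to 1347.

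The single comparison of the design, KI against WT, was read for the 6 genes from the fit of all 17291 tested genes. By edgeR's quasi-likelihood test with Benjamini-Hochberg adjustment 0 of 6 were called, against 0% of all genes tested, and 0 of 6 reached an unadjusted p under 0.05, against 7.79% of all. DESeq2 called 0 of the 6, against 1.29% of genes with an adjusted p, and edgeR's likelihood ratio test and limma-voom also called 0. WT and KI overlapped for each of the 6, where 4.94% of all tested genes had groups that did not overlap. The median log2 fold change was 0.01 over the 6 genes and 0.00 over all tested genes, with 3 of the 6 above 0.

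Among the activating receptors, Fcgr1 was read at 469, 441, 392 and 451 CPM in WT 503, 504, 506 and 527 and at 410, 404, 414 and 492 CPM in KI 513, 526, 528 and 549. KI 549 held the highest value and WT 506 the lowest, and the other 3 KI libraries lay between WT 506 and WT 504. The fitted log2 fold change was -0.03 (SE 0.081, 95% interval -0.21 to 0.15, adjusted p = 0.97), which allows a fold between 0.866 and 1.11.

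Fcgr3, the abundant low-affinity receptor, was read in the same order of libraries at 2937, 2903, 2753 and 2867 CPM in WT and at 2937, 2707, 3355 and 2956 CPM in KI. KI 528 was the highest of all and KI 526 the lowest, so KI spanned the whole WT range. The log2 fold change was 0.06 (SE 0.064, 95% interval -0.08 to 0.20, adjusted p = 0.89), and without KI 528 it was 0.001.

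Fcgr4, which binds IgG2 subclasses with intermediate affinity, was the scarcest, at 24.3, 23.1, 14.2 and 19.3 CPM in WT and at 18.6, 23.6, 19.2 and 20.3 CPM in KI. WT 506 was the lowest of the 8 libraries and WT 503 the highest, so the KI values lay inside the WT range. These levels rest on 705 to 1328 reads per library. The log2 fold change was 0.02 (SE 0.178, 95% interval -0.38 to 0.41, adjusted p = 0.994). This was the widest interval of the 6, allowing a fold between 0.768 and 1.33, and without WT 506 the value was -0.12.

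The signalling chain Fcer1g was read at 1149, 1142, 1035 and 1082 CPM in WT and at 1150, 1139, 1272 and 1139 CPM in KI. KI 528 stood above the other 7 libraries and WT 506 below them, while the other 3 KI libraries lay beside WT 503 and WT 504. Its log2 fold change of 0.09 had the smallest p of the 6 genes (SE 0.058, 95% interval -0.04 to 0.22, unadjusted p = 0.141, adjusted p = 0.768), and it was 0.05 without KI 528. Relative to the 3 receptors it serves, Fcer1g in FPKM was 0.782 ± 0.016 in WT and 0.806 ± 0.0348 in KI. The other ITAM adaptor of microglia, Tyrobp (DAP12), which signals for Trem2, was at 581 ± 20.5 and 578 ± 20.2 CPM (log2 fold change -0.01, adjusted p = 0.988).

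The inhibitory receptor Fcgr2b was the steadiest member, at 611, 599, 584 and 618 CPM in WT and at 592, 580, 635 and 597 CPM in KI. KI 526 was the lowest and KI 528 the highest, and without KI 528 the log2 fold change was -0.03. The coefficient of variation was 2.47% in WT and 3.97% in KI, against 22.5% for Fcgr4 in WT. The log2 fold change was -0.00 (SE 0.051, 95% interval -0.12 to 0.11, adjusted p = 0.995), so the data allow a fold between 0.922 and 1.08.

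Fcgrt was read at 207, 217, 230 and 235 CPM in WT and at 192, 229, 222 and 236 CPM in KI. KI 513 was the lowest library and KI 549 the highest, so KI spanned the whole WT range. The log2 fold change was -0.02 (SE 0.077, 95% interval -0.19 to 0.16, adjusted p = 0.982). Its partner chain B2m, which also serves class I molecules, averaged 2227 ± 92.5 CPM in WT against 2382 ± 193 for KI (a log2 fold change of 0.10, adjusted p = 0.78). That fold change was 0.04 without KI 528 and -0.01 with the trends on GC content and length removed. In FPKM, B2m was 26.3 to 35.6 times Fcgrt, and the groups overlapped.

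**Figure D3:**
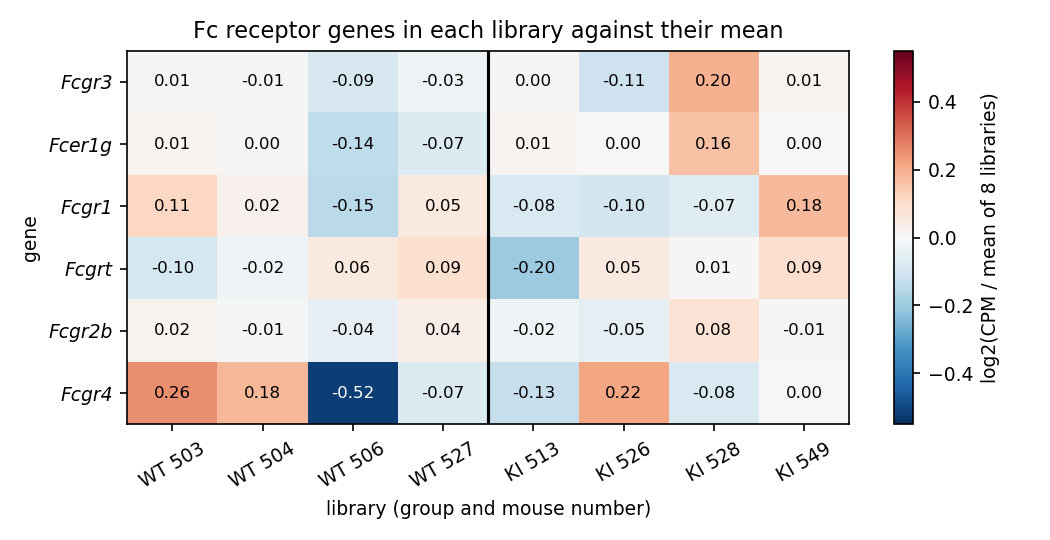
Each gene in each library as the log2 ratio of its CPM to its mean over the 8 libraries, with red above and blue below the mean and a line between WT and KI. KI 528 is highest for Fcgr3 (0.20), Fcer1g (0.16) and Fcgr2b (0.08) and not for Fcgr1 (-0.07), Fcgr4 (-0.08) or Fcgrt (0.01), and the lowest cell is Fcgr4 in WT 506 (-0.52).

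Across mice, Pearson's r between members ran from -0.285 to 0.841. Of the 15 pairs, compared on log2 CPM over the 8 libraries, Fcgr2b and Fcgr3 had the highest correlation (Pearson r = 0.841, exact permutation p = 0.00747, adjusted over the 15 pairs 0.112). These genes share the identical run printed above, and the part of shared reads in their correlation was not tested. Spearman's rho for that pair was 0.643 (exact permutation p = 0.0962, adjusted 0.453), and r was 0.821 without the 2 libraries farthest from the Fcgr2b median, KI 528 and WT 527. Fcgr3 and Fcer1g had r = 0.83 (exact permutation p = 0.024, adjusted 0.18) and rho = 0.762 (exact permutation p = 0.0368, adjusted 0.453), and r = 0.954 without KI 528 and KI 526. No pair passed after adjustment. With the group means taken off, r was 0.911 for the first pair and 0.832 for the second. Other pairs depended on the measure and on single libraries. Fcgr4 against Fcgr3 had r = 0.0316 (exact permutation p = 0.949, adjusted 0.971) and rho = 0, but r = 0.797 without KI 528 and KI 526. Fcgr1 against Fcgr3 had r = 0.161 (exact permutation p = 0.731, adjusted 0.965) and rho = 0.595 (exact permutation p = 0.132, adjusted 0.453), and r = 0.16 without KI 549 and WT 503. Fcgrt against Fcer1g had r = -0.285 (exact permutation p = 0.473, adjusted 0.965) and rho = -0.69 (exact permutation p = 0.0694, adjusted 0.453), and r = -0.577 without KI 528 and WT 506.

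Genes whose pattern across the 8 libraries was most like that of a member were ranked by Pearson r of log2 CPM with the group means taken off, among 9038 genes averaging 5 CPM or more. The nearest to Fcgr3 were Apoe (r = 0.986), the lipid carrier of glia, then Nedd4l (0.976). Without the 2 libraries farthest from the Fcgr3 median these were 0.939 and 0.771. The nearest to Fcer1g were Mesd (0.957), Sh3bgrl3 (0.952) and H2-DMa (0.949), a class II peptide loading gene. For Fcgr1 they were Zfp94 (0.967), Timm17b (0.965) and Smdt1 (0.964), for Fcgr2b Gclc (0.961), Exosc8 (0.957) and Mettl14 (0.954), for Fcgr4 Msmo1 (0.956), Ptcd2 (0.951) and Trappc2l (0.947), and for Fcgrt E2f2 (0.994), Hcar2 (0.955) and Mtr (0.953). With the group means left in, r of the listed genes ran from 0.417 (Fcgr2b and Exosc8) to 0.967 (Fcer1g and Sh3bgrl3). Without the 2 libraries farthest from each member's median, r ran from 0.709 (Fcgrt and Hcar2) to 0.972 (Fcgr1 and Timm17b). The ranked values are the highest of 9038 per member over 8 libraries that share their depth scaling, and they are given as a description.

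Other receptors of immunoglobulin were mostly scarce. Of 13 listed genes 4 had enough reads to be tested. Fcrls, an Fc receptor-like gene typical of mouse microglia that is not known to bind IgG, was at 2005 ± 187 CPM in WT against 1917 ± 219 for KI (a log2 fold change of -0.06, adjusted p = 0.93). Fcrl1 was at 135 ± 8.35 and 141 ± 16.1 CPM. Trim21, a cytosolic IgG receptor, was low at 2.67 ± 0.898 and 2.32 ± 1.68 CPM (log2 fold change -0.20, adjusted p = 0.966). The fourth was Fcrlb, at 0.288 to 0.893 CPM. Fcer1a and Ms4a2, which pair with Fcer1g in the IgE receptor of mast cells and basophils, had 0 to 71 and 0 to 58 reads per library. Of the partner chains, Hcst (9.79 ± 1.47 and 12.2 ± 0.924 CPM, adjusted p = 0.699) was tested beside B2m and Tyrobp, and Cd247, the zeta chain, had 2 to 21 reads per library.

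Over all lists of the pathway, the other immunoglobulin receptors and partner chains included, 94 of 112 genes could be tested, and by the quasi-likelihood test 0 were called (lowest adjusted p = 0.507). The lists were chosen with earlier results of these data known, so their shares here and below are given as a description. At an unadjusted p under 0.05 were 13 of the 94 (13.8%, against 7.79% of all tested genes), with 3 higher in KI (3.23% of all) and 10 lower (4.56% of all). Their median log2 fold change was -0.03, with 43 above 0 and 51 below. The groups did not overlap in 7 of the 94 (7.45%, against 4.94% of all), 2 higher (2.34% of all) and 5 lower (2.60% of all). The count of 13 was 6 without KI 526, 8 without KI 528 and 8 with the trends on GC content and length removed. The share over all genes in those settings was 7.01%, 6.38% and 6.66%. In the other direction, the count was 18 without KI 549 and 16 without WT 503, with 9.13% and 8.43% over all genes. The split of 3 higher and 10 lower was 0 and 8 with those trends removed, 0 and 11 with scaling by library total only, 3 and 5 without KI 528, 0 and 6 without KI 526, 0 and 9 without KI 513, 1 and 12 without WT 504, 1 and 9 by limma on log2(FPKM + 1), and 7 and 14 by DESeq2. KI 526 held the highest marker sums of oligodendrocytes (222 CPM, 95.2 to 212 elsewhere), astrocytes (46.1, 15.7 to 43.8 elsewhere), neurons (14.2, 1.13 to 9.16 elsewhere) and B cells (116, 81.6 to 109 elsewhere). Of the 6 markers of B cells and plasma cells, only 2 had enough reads to be tested, and Cd79b was the most abundant. The part of the marker sums in the count of pathway genes was not tested.

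Of the kinases at the ITAM, 2 of 10 tested genes had a p under 0.05 (20%, against 7.79% of all tested genes), in opposite directions. Syk, which reads the phosphorylated ITAM, was at 106, 97.3, 110 and 97.8 CPM in WT and at 97.5, 74.0, 76.0 and 83.7 CPM in KI. Only KI 513 reached the WT range. The fitted log2 fold change was -0.31 (SE 0.099, 95% interval -0.54 to -0.09, adjusted p = 0.548). Tec averaged 36.1 ± 2.78 CPM in WT against 43.7 ± 5.87 for KI (a log2 fold change of 0.27, adjusted p = 0.631). Lyn, a Src-family kinase that phosphorylates the ITAM, was at 631 ± 20.5 and 634 ± 42.1 CPM (adjusted p = 0.987).

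Among the adaptors, 2 of 13 tested genes had a p under 0.05 (15.4%, against 7.79% of all tested genes). Pik3ap1, which brings PI3-kinase to receptors, averaged 92.5 ± 14.1 CPM in WT against 60.5 ± 15.1 for KI (a log2 fold change of -0.61, adjusted p = 0.507). Nck1, a link to actin, averaged 100.03 ± 14.8 and 122 ± 16.9 (log2 fold change 0.29, adjusted p = 0.634). Of the effectors, 2 of 21 did (9.52%, against the same 7.79%). Plcg2, the phospholipase of this pathway, was at 145 ± 11.7 and 117 ± 21.5 CPM (log2 fold change -0.30, adjusted p = 0.614). Prkca, a protein kinase C, was at 39.4 ± 6.84 and 31.7 ± 1.27 (-0.31, adjusted p = 0.622). Without KI 528 the log2 fold change of Plcg2 was -0.20.

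The list of inhibitors held 4 of 16 tested genes with a p under 0.05 (25%, against 7.79% of all tested genes). Each of the 4 had a lower mean in KI, where 4.56% of all were lower at that threshold. The role of the listed genes in these cells was not tested. Inpp5d, the SHIP-1 that Fcgr2b recruits, was at 422, 400, 444 and 444 CPM in WT and at 379, 295, 341 and 427 CPM in KI. KI 549 lay inside the WT range and the other 3 KI libraries below it (log2 fold change -0.25, 95% interval -0.47 to -0.02, adjusted p = 0.609). With the trends on GC content and length removed, the unadjusted p of Inpp5d was 0.0677 by the quasi-likelihood test. Cblb, a ubiquitin ligase, averaged 23.8 ± 2.32 CPM in WT against 13.4 ± 4.61 in the KI libraries, without overlap (log2 fold change -0.83, adjusted p = 0.507, and 0.0308 by DESeq2, with a range of 0.0308 to 0.864 over the alternatives). Dok1, a docking protein, averaged 48.1 ± 10.4 and 32.5 ± 5.79 (-0.57, adjusted p = 0.533), and the phosphatase Ptprj 125 ± 13.8 and 107 ± 6.58 without overlap (-0.23, adjusted p = 0.604). Without WT 504 the unadjusted p of Ptprj was 0.102 by the quasi-likelihood test. Ptpn6 (SHP-1) was at 397 ± 40.4 and 380 ± 24.4 CPM (-0.06, adjusted p = 0.915).

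Of 19 tested genes of engulfment, 2 had a p under 0.05 (10.5%, against 7.79% of all tested genes). Both encode Rac GTPases, which drive actin into the phagocytic cup. Rac1 was at 153, 118, 117 and 123 CPM in WT and at 66.7, 96.2, 87.1 and 62.0 CPM in KI. All 4 KI libraries were below all 4 of WT (log2 fold change -0.71, SE 0.15, 95% interval -1.05 to -0.38, adjusted p = 0.507). DESeq2 (adjusted p = 0.00555) and the likelihood ratio test of edgeR (0.00967) called it, and over the other alternatives its adjusted p reached 0.848. Rac2, the form of blood cells, was at 155, 162, 162 and 163 CPM in WT and at 148, 126, 133 and 152 CPM for KI (log2 fold change -0.20, adjusted p = 0.592). Among 8 tested genes of FcRn routing, 1 had a p under 0.05 (12.5%, against 7.79% of all tested genes). This was Rab11a of the recycling endosome, with 281 ± 17.5 CPM in WT against 310 ± 11.8 for KI (a log2 fold change of 0.14, adjusted p = 0.629). Rab4a had the next smallest p (16.6 ± 0.647 and 13.5 ± 2.5 CPM, -0.30, adjusted p = 0.718). Without KI 526 the log2 fold change of Rab4a was -0.19, and with the trends on GC content and length removed that of Rab11a was 0.09.

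**Figure D4:**
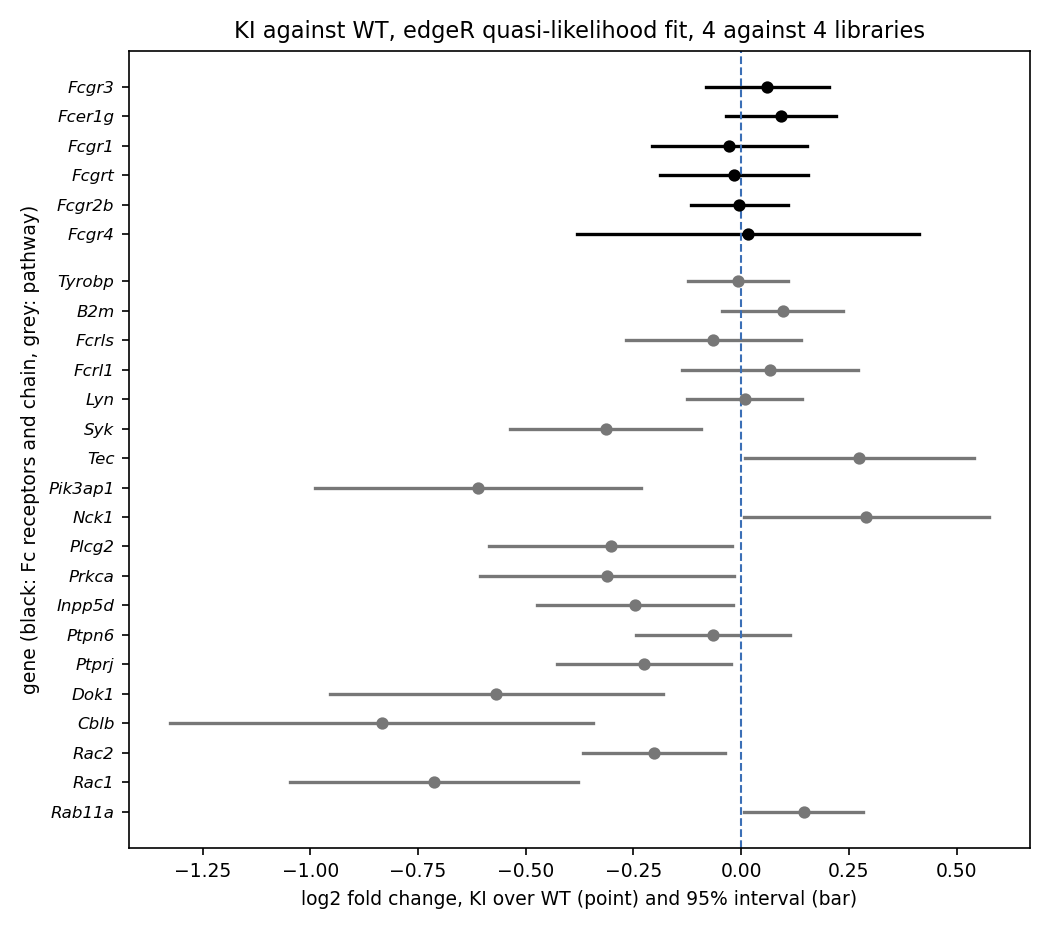
Log2 fold change of KI over WT as a point and its 95% interval as a bar, from the edgeR quasi-likelihood fit of 4 against 4 libraries, with the 6 Fc receptor genes in black and pathway genes in grey. The intervals of the 6 genes all include 0 and reach from -0.38 to 0.41. Before adjustment, those of 10 pathway genes from Syk to Rac1 lie below 0, and those of Tec, Nck1 and Rab11a above 0. The pathway genes drawn include all 13 of the 94 tested with an unadjusted p under 0.05 in the quasi-likelihood test. Over all tested genes, 4.56% were lower and 3.23% higher in KI at that threshold.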

How the data were processed

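Read counts per gene were deposited by the authors. Per the file headers they were made with featureCounts v2.0.3 over exons of an mm10 annotation, from paired input, with primary alignments, no strand option and each read of a pair counted by itself. Of the counts from 1 to 9, 68.9% to 70.8% were even in each library. Per the submitters' processing notes, STAR 2.7.5c was also used. The FPKM values deposited by the authors equal the count over the library total and over the exon length less about 189 bases. The count table also gives, per the file headers, the summed exon length. Of its 16 library columns, 8 match no label and were not used. The table of normalized values was not used.

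Symbols and positions came from GENCODE M21 of the same build (54495 identifiers matched, 98.1% with the same start and end). Counts were scaled by TMM, filtered by filterByExpr (minimum count 10, total 15) and tested with edgeR 4.0.16 in R 4.3.3 (quasi-likelihood, robust, group only), with DESeq2 1.42.0 and limma 3.58.1 as alternatives. The tests were checked on simulated data. Adjusted p-values under 0.05 counted as calls. The p-values of KI against WT rest on the spread between the 4 mice of each group, estimated with information shared across genes.

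Total counts were 45167483 to 54049801, and the lowest count of a member in a library was 705 (Fcgr4). Fold changes are KI over WT. Pairs of members were compared by exact permutation of the 8 libraries, 2-sided.

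Named genes were the 6 members, P2rx4, Itgam, set partners and kinases, the genes of each list with a p under 0.05 (at least the 2 with the smallest p) and the 3 genes most like each member. A few genes that the rule or a marker list takes in are not reported here. The members and lists were chosen with earlier results of these data known. Itgam, the gene of CD11b, was at 310 ± 14 CPM in WT and 314 ± 17.9 in KI.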

Additional observations from a re-analysis of the deposited data

Results flagged for a closer look

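In 60 groups of 4 libraries (30 genes, WT and KI), 4 had 1 library far from the other 3 by Dixon's test at the 95% level, which chance meets in about 1 in 20 groups. All 4 were KI groups. Fcgr1 stood at 491.79 CPM in KI 549 against 404 to 414 in the other KI libraries. Fcer1g stood at 1271.6 CPM in KI 528 against 1139 to 1150. Tyrobp stood at 548.23 CPM in KI 526 against 584 to 591. Pik3ap1 stood at 82.979 CPM in KI 549 against 50.3 to 54.7.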

How the results depend on the processing

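Over 19 alternatives for each of the 6 genes, 14 of 114 fold changes had the opposite sign, and no member was called in any. With 1 library left out, log2 fold changes ran from -0.0979 to 0.0062 for Fcgr1, -0.0314 to 0.0084 for Fcgr2b, 0.001 to 0.1012 for Fcgr3, -0.1202 to 0.1153 for Fcgr4, 0.0526 to 0.1122 for Fcer1g and -0.0517 to 0.0407 for Fcgrt. They ran from -0.0099 to 0.0483 for Itgam, -0.022 to 0.0177 for Tyrobp, -0.7609 to 0.0673 for Trim21, -0.026 to 0.0351 for Lyn and -0.1079 to 0.0049 for Ptpn6. With GC and length trends removed, the sign turned for Fcgr1 (0.0021), Fcgr4 (-0.0328), Fcgrt (0.0565), B2m (-0.0106), Tyrobp (0.0168), Lyn (-0.0155) and Ptpn6 (0.0135). Lyn also turned with scaling by library total (-0.0036) and in limma on log2(FPKM + 1) and log2(FPKM + 0.1) (-0.0045 in both); the cause was not tested.

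The quasi-likelihood test called 0 of 17291 genes (1347 at an unadjusted p under 0.05), DESeq2 250, the likelihood ratio test 42 and limma on log2(FPKM + 1) 1. Of the pathway lists DESeq2 called 2 (Rac1 and Cblb) and the likelihood ratio test 1 (Rac1). The activating to inhibitory ratio was 17.6 in WT and 18.3 in KI with TMM-scaled CPM per summed exon length, 5.51 and 5.72 without length, and 13.6 and 14.1 per longest coding transcript, an alternative added after seeing the data. At an unadjusted p under 0.05 DESeq2 had 21 of 109 tested pathway genes, where 6.38% of all its 36872 tested genes were. The quasi-likelihood test had 13 of 94, where 7.79% of all were. Among genes with at least 1 CPM in at least 4 libraries that test had 14 of 90, where 9.14% of all were. With the counts halved, Fcgr4, the member with the fewest reads, was at 0.0135 (adjusted p = 0.992 by edgeR). No paired analysis was possible because WT and KI share no mouse number.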
